A study of Mus musculus with 24 samples.

Results

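The liver makes most of the proteins of blood clotting and of complement, and the transcripts of 40 such proteins were described in liver RNA of wild-type mice and of mice that lacked a single phenylalanine tRNA gene. The 40 genes were taken by symbol from the 55469 genes of the liver table, and all 40 passed the filter on low values, together with 15856 genes tested in all. The mice were C57BL/6N males, matched for age and litter per the labels, on a normal chow diet and a light/dark cycle. The study's methods also say that the mice in its experiments came from different litters. They belonged to 4 genotypes. Beside WT these were tRNA-Phe-1-1-/-, which lacks the gene tRNA-Phe-1-1, and in the same way tRNA-Phe-2-1-/-, as well as tRNA-Phe-3-1-/-. Each knockout line was homozygous for a CRISPR-Cas9 deletion of the named gene, and the other genes for this tRNA remained. Each genotype had 3 liver and 3 brain libraries (replicates A, B and C), which gives 12 liver and 12 brain libraries. The study's methods give at least 3 mice per genotype, and whether liver and brain libraries of the same letter came from one mouse is not given in the sources used here. Total reads recovered from the normalised counts ranged from 32276896 to 51584522 in the liver.

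Clotting proceeds through a chain of serine proteases (F12, F11, F9, F7, F10 and F2, which is prothrombin) that circulate as inactive precursors, with F5 as a cofactor. Thrombin cuts fibrinogen, a hexamer of the chains encoded by Fga, Fgb and Fgg, into fibrin, F13b carries the enzyme that crosslinks it, and plasmin, made from Plg, dissolves it. Complement is a parallel cascade in which the classical and lectin routes (C4b, C2, Masp1, Masp2, Mbl1, Mbl2) and the alternative route (Cfb) converge on C3, and C5 (the gene Hc), C6, C8 and C9 then build a pore in the target membrane. Hepatocytes secrete these proteins in large amounts, and the output of some of them, the fibrinogen chains above all, is known to rise in the acute phase response.

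The 3 fibrinogen chains moved together in the results that follow, and their genes lie side by side on chromosome 3, so the 250 bases before each gene's start are shown (RefSeq, GRCm38.p6, strand of the gene). Capitals mark matches on either strand to a pair of short motifs, CTGGGAA (the core of the interleukin 6 response element of acute phase genes) and TTGCNNAA (C/EBP sites).
Fga, chr3:83025903-83026152, plus strand: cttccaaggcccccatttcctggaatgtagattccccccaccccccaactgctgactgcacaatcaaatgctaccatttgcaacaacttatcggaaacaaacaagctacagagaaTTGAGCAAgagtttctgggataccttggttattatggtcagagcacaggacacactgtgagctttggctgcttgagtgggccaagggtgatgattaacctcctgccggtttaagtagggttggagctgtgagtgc
Fgb, chr3:83049864-83050113, minus strand: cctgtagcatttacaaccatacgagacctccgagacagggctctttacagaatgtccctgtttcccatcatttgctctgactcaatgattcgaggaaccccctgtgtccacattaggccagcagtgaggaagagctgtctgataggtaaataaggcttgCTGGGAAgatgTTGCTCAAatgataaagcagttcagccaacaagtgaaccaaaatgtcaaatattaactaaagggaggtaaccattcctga
Fgg, chr3:83007474-83007723, plus strand: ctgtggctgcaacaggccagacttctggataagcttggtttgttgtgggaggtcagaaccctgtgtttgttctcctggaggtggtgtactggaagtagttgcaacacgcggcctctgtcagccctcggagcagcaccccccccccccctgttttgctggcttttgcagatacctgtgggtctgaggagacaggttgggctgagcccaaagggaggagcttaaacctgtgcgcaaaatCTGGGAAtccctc
CTGGGAA stood 91 to 85 bases before the start of Fgb and 13 to 7 bases before that of Fgg, and Fga held no exact match. Fga held TTGCNNAA on the opposite strand, 135 to 128 bases before its start, Fgb held it on its own strand, 80 to 73 bases before, and Fgg held no match to it. No 2 of these matches overlapped. Promoter windows (250 bases before to 50 after the start) were found for 31 of the 40 genes, and were missing for Kng1, Proc, Serping1, Plg, C2, C4b, Masp1, Cfb and Cfi. Of the 31, 7 held CTGGGAA (F9, Fgb, Fgg, Kng2, Vtn, Masp2 and C6) against 11.1% of all 32851 windows, 11 held TTGCNNAA against 10.8%, and 0 held CAAAGTCC (an HNF4 site) against 1.42%. A further planned motif, GTTAAT, is given no count here. Its reverse complement occurs, without capitals, in the Fga and Fgb stretches shown above. All of these are matches of letters in a window and not measured binding.

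Levels were compared between genes per kb of transcript. Fga was highest with 83372 normalised counts per kb as the mean of the 12 livers, followed by Fgg (77366), Fgb (49025), C3 (47619) and Vtn (43348, vitronectin). Pros1 (761.7, protein S), F11 (881.6) and Masp1 (975.0) were lowest. Lengths were those of one reference transcript per gene, so the level of a gene whose main transcript is shorter is understated, while comparisons between libraries are not affected. The plot of levels per kb gives the mean and SD of each gene in each genotype.

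**Figure D1:**
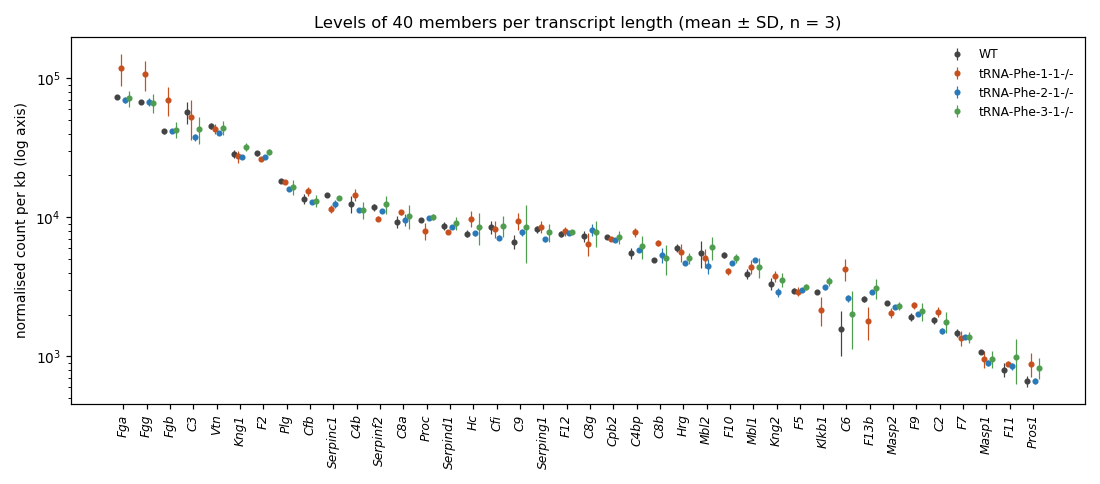
Normalised counts per kb of transcript (log axis) for the 40 genes in the liver, ordered by the mean of the 12 libraries. Points are means of 3 libraries and bars the SD, coloured by genotype; the fibrinogen chains stand at the top and are higher in tRNA-Phe-1-1-/- livers, and Pros1 is the lowest gene at 761.7 normalised counts per kb.

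Together the 40 genes held 3.54%, 3.90% and 3.83% of all normalised counts in the WT livers A, B and C. In tRNA-Phe-1-1-/- livers they held 4.39%, 5.45% and 3.91%, in tRNA-Phe-2-1-/- livers 3.52%, 3.37% and 3.35%, and in tRNA-Phe-3-1-/- livers 3.99%, 3.21% and 3.47%. The 3 tRNA-Phe-1-1-/- livers thus lay above the 3 WT livers, replicate C by a narrow margin. Fibrinogen held 1.89% ± 0.52 (SD, n = 3) of the counts in tRNA-Phe-1-1-/- livers and 1.12% ± 0.046 in WT, whereas the 36 genes other than fibrinogen and C3 held 2.03% ± 0.037 and 1.94% ± 0.044. With 3 libraries against 3 an exact permutation test cannot give a p below 0.1, so these shares are given as a description.

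To find which of these transcripts differed in the absence of each tRNA gene, the knockout livers were compared with the WT livers. In tRNA-Phe-1-1-/- livers, 9 of the 40 genes changed at an adjusted p under 0.05, with 5 higher (Fga, Fgb, Fgg, C4bp and C6) and 4 lower (F10, F13b, Klkb1 and Serpinc1). Over all 15856 genes the called share was 17.3%, with 8.27% higher and 9.08% lower, and among the 2016 genes at least as abundant as F11, the lowest of the 40, it was 28.4%, so the number called among the 40 genes is not a result about them as a set. Their log2 fold changes had a median of -0.02, against -0.01 for all genes, and a range from -0.56 (F13b) to 1.48 (C6). The F-test for any difference among the 4 genotypes called 7 of the 40 (F10, F13b, Fga, Fgb, Fgg, Klkb1 and C6), against 17.0% of all genes and 30.1% of the 2016 genes of like abundance. Quantile normalisation gave 6 higher and 2 lower, edgeR on recovered reads 5 and 2, and DESeq2 5 and 6. With these settings 17.4%, 17% and 21.9% of all genes were called. Leaving out one library gave between 3 (without WT replicate B or C, or without tRNA-Phe-1-1-/- replicate A) and 12 (without tRNA-Phe-1-1-/- replicate C) called genes, with 5 without WT replicate A or tRNA-Phe-1-1-/- replicate B. The share of all genes called was 11.3% without WT replicate B, 9.28% without WT replicate C and 10.2% without tRNA-Phe-1-1-/- replicate A. It was 16.1% without tRNA-Phe-1-1-/- replicate C, 14.7% without WT replicate A and 14.4% without tRNA-Phe-1-1-/- replicate B.

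In tRNA-Phe-2-1-/- livers, and in tRNA-Phe-3-1-/- livers, 0 of the 40 genes passed the threshold with limma, and 0 with edgeR or DESeq2. The called share of all genes was 0.132% and 0.883% with limma, 0.126% and 0.883% with edgeR, and 3.13% and 4.77% with DESeq2. At an unadjusted p under 0.05 there were 7 of the 40 in tRNA-Phe-2-1-/- livers and 1 in tRNA-Phe-3-1-/- livers. Over all 15856 genes there were 2365 and 2550, so the 7 are not a result about the 40 genes as a set. Over the 40 genes the log2 fold changes had medians of -0.07 and 0.05, against 0.00 and 0.01 over all genes. The 3 knockout values lay apart from the 3 WT values for 20 of the 40 genes in tRNA-Phe-1-1-/- livers (34.8% of all genes), for 17 in tRNA-Phe-2-1-/- livers (25.4%) and for 2, Klkb1 and Hrg, in tRNA-Phe-3-1-/- livers (19.9%). Among the 2016 genes of like abundance these shares were 46.2%, 37.7% and 25.7%.

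**Figure D2:**
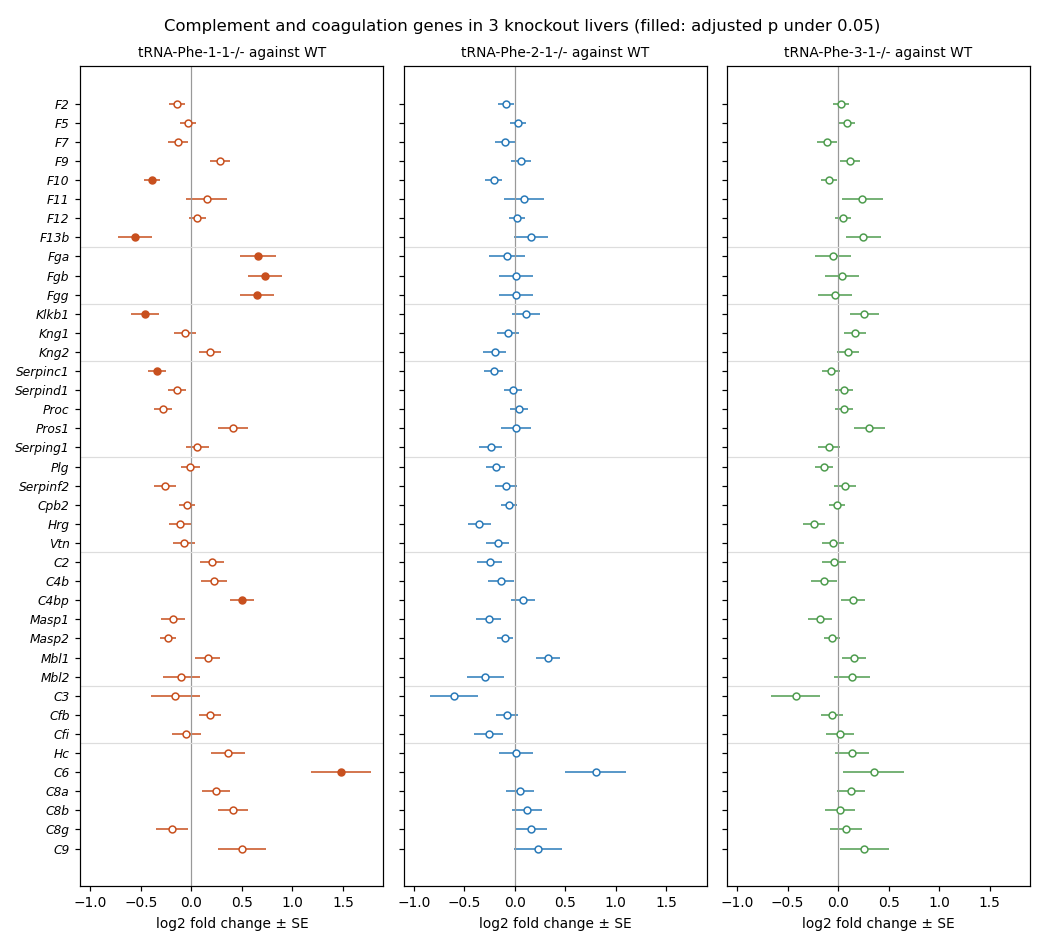
Log2 fold change (x axis, log2(normalised count + 1) scale) of each of the 40 genes (y axis, grouped by role between grey lines) in the 3 knockout livers against WT; points are estimates over 3 libraries against 3, bars the standard error, and filled points have an adjusted p under 0.05. The 9 filled points are all in the tRNA-Phe-1-1-/- panel, where C6 lies farthest right at 1.48 and F13b farthest left at -0.56.

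The 3 fibrinogen chains were higher in tRNA-Phe-1-1-/- livers. Fga, the alpha chain, had 185943, 189785 and 194753 normalised counts in WT livers A, B and C and 296091, 392004 and 232722 in tRNA-Phe-1-1-/- livers, with 183484, 186442 and 171792 in tRNA-Phe-2-1-/- and 213648, 164244 and 177293 in tRNA-Phe-3-1-/- livers. Each tRNA-Phe-1-1-/- value exceeded each of the other 9, and replicate B was the highest. The log2 fold change against WT was 0.66 ± 0.18 (SE, adjusted p = 0.0303). Fgb, the beta chain, had 150944, 160875 and 161546 in WT and 256265, 334468 and 210426 in tRNA-Phe-1-1-/- livers, with 158245, 165301 and 154550 in tRNA-Phe-2-1-/- and 187239, 144403 and 157178 in tRNA-Phe-3-1-/- livers. It rose by 0.73 ± 0.17 on the log2 scale (adjusted p = 0.0135), again with replicate B highest and no overlap with any other group. Fgg, the gamma chain, had 121315, 127650 and 131071 in WT and 190202, 256369 and 159852 in tRNA-Phe-1-1-/- livers, with 128425, 135869 and 117695 in tRNA-Phe-2-1-/- and 146325, 111539 and 117211 in tRNA-Phe-3-1-/- livers. It rose by 0.65 ± 0.17 (adjusted p = 0.0258), in the same library order.

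The chains kept nearly constant proportions while their amounts changed. The Fga to Fgb ratio per kb lay between 1.63 and 1.81 and the Fgg to Fgb ratio between 1.51 and 1.67 over all 12 livers. The rise was also seen against the other knockouts, with log2 differences of 0.73, 0.72 and 0.64 for Fga, Fgb and Fgg against tRNA-Phe-2-1-/- livers (adjusted p = 0.0205, 0.0163 and 0.0285) and of 0.71, 0.70 and 0.68 against tRNA-Phe-3-1-/- livers (adjusted p = 0.0243, 0.0191 and 0.0229). These comparisons use the same 3 tRNA-Phe-1-1-/- libraries as the one against WT. None of the chains passed against tRNA-Phe-2-1-/- livers without tRNA-Phe-2-1-/- replicate B or C, nor against tRNA-Phe-3-1-/- livers in a fit of those 2 groups alone. The call for Fgb held when any one library was left out (adjusted p up to 0.0461), whereas those for Fga and Fgg were lost without any one of the 3 WT libraries or tRNA-Phe-1-1-/- replicate A or B (adjusted p from 0.0582 to 0.0844). In a fit of the 2 groups alone none of the 3 passed (adjusted p of 0.0667 to 0.109), and Fga did not pass without the filter on low values (adjusted p = 0.061).

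The fibrinogen genes were set beside 25 other acute phase and interleukin 6 response genes. Of these, 21 were higher and 0 lower in tRNA-Phe-1-1-/- livers, the median of their log2 fold changes being 1.64, and 0 passed in either of the other knockouts. The serum amyloid gene Saa4 (log2 fold change 2.80 ± 0.22, adjusted p = 5.4e-05), Steap4 (3.05 ± 0.25, adjusted p = 5.4e-05), the protease inhibitor Serpina3m (1.01 ± 0.07, adjusted p = 3.6e-05) and haptoglobin (Hp, 1.64 ± 0.19, adjusted p = 0.000362) had the lowest p-values. The summed level of the list was 862225, 1060713 and 579576 normalised counts in tRNA-Phe-1-1-/- livers A, B and C and 375982 to 440546 in WT, so the libraries had the same order as for fibrinogen. Of 20 transcription factors of secreted protein genes, 8 were higher and 2 lower, where 8.27% of all genes were higher and 9.08% lower. Among the higher ones were Cebpd (2.49 ± 0.23, adjusted p = 0.000114) and Cebpb (2.09 ± 0.22, adjusted p = 0.000195), while Prox1 (0.67 ± 0.19, adjusted p = 0.0341) rose less. The 2 lower factors are not named here, and log2 fold changes over the list of factors ran from -1.67 to 5.23. Within this list the clock-controlled factor Dbp also differed, with 67.42, 28.66 and 67.45 normalised counts in WT and 2776, 852.6 and 3069 in tRNA-Phe-1-1-/- livers, 36.86, 84.82 and 382.5 in tRNA-Phe-2-1-/- livers, and 170.0, 2173 and 1343 in tRNA-Phe-3-1-/- livers. Dbp was singled out after its values were seen. The part of these genes in the values of the 40 was not tested.

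**Figure D3:**
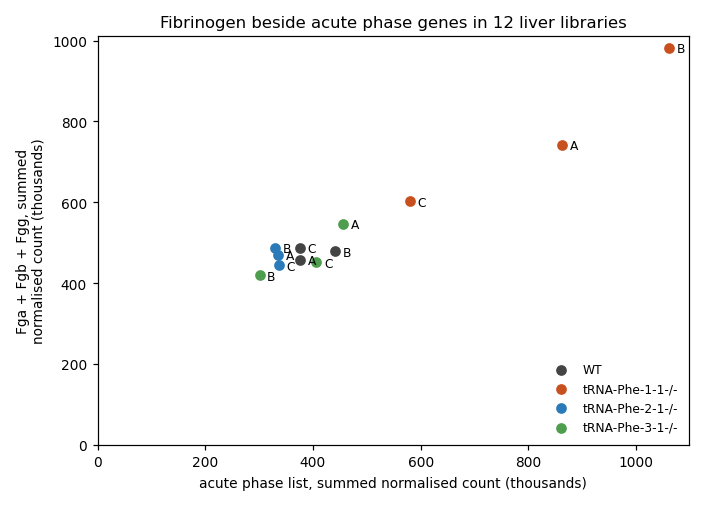
Summed normalised counts (in units of 1000) of Fga, Fgb and Fgg (y axis) against the summed normalised counts (in units of 1000) of 25 acute phase and interleukin 6 response genes (x axis) in the 12 liver libraries, lettered by replicate and coloured by genotype. The 3 tRNA-Phe-1-1-/- livers lie to the upper right, from C (603000 for fibrinogen) through A (742558) to B (982841), and the other 9 lie together at the lower left.

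C6, a subunit of the membrane attack complex, had the largest log2 fold change of the 40 genes. It had 6523, 4518 and 3139 normalised counts in the WT group and 15377, 10741 and 12213 in tRNA-Phe-1-1-/- livers, with 8440, 7651 and 7536 in tRNA-Phe-2-1-/- and 5180, 3981 and 9195 in tRNA-Phe-3-1-/- livers. It rose by 1.48 ± 0.30 in tRNA-Phe-1-1-/- livers (adjusted p = 0.00625), a 2.79-fold difference, and the call held when any one library was left out (log2 fold change 1.22 to 1.75, adjusted p up to 0.0314). The tRNA-Phe-2-1-/- livers also lay above WT (log2 fold change 0.80 ± 0.30, adjusted p = 0.260), and the direct difference of tRNA-Phe-1-1-/- livers from tRNA-Phe-2-1-/- livers was 0.68 ± 0.30 (adjusted p = 0.142). Against tRNA-Phe-3-1-/- livers, in which replicate C was far above the others, the difference was 1.14 ± 0.30 (adjusted p = 0.0248). That call was lost in a fit of those 2 groups alone. C6 also had the widest spread within genotypes, with an SD of 0.43 on the log2 scale, against a median of 0.15 over the 40 genes and 0.05 for F2.

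The other terminal complement genes did not pass the threshold. C9, which forms the wall of the pore, averaged 13636 ± 1544 in WT and 19374 ± 2786 in tRNA-Phe-1-1-/- livers (log2 fold change 0.50, adjusted p = 0.174), with 15976 ± 1032 in tRNA-Phe-2-1-/- and 17320 ± 7675 in tRNA-Phe-3-1-/- livers. Hc averaged 41458 ± 2407, 53283 ± 6774, 41745 ± 1639 and 46710 ± 12130 in the same order of genotypes. C8 consists of 3 chains, of which C8b averaged 15172 ± 523.4, 20168 ± 1122, 16560 ± 2108 and 15671 ± 3825. The C8g chain averaged 8383 ± 784.7, 7440 ± 1375, 9354 ± 944.4 and 8962 ± 1893, so that the C8g to C8b ratio per kb was 0.846 to 1.10 in tRNA-Phe-1-1-/- livers and 1.39 to 1.58 in WT. Over the 12 livers this ratio spanned 0.846 to 1.97, and the C8a to C8b ratio 1.51 to 2.25. As a group the log2 fold changes of the 6 terminal genes had a median of 0.38 in tRNA-Phe-1-1-/- livers, 0.14 in tRNA-Phe-2-1-/- and 0.13 in tRNA-Phe-3-1-/- livers.

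Among the genes that start and amplify complement, C4bp changed. C4bp, the binding protein that restrains C4b, had 18863, 16477 and 15768 normalised counts in WT and 25905, 22288 and 23953 in tRNA-Phe-1-1-/- livers, with 17882, 17414 and 18632 in tRNA-Phe-2-1-/- and 17125, 16746 and 23233 in tRNA-Phe-3-1-/- livers. It rose by 0.50 ± 0.12 (adjusted p = 0.0192) without overlap with WT, and tRNA-Phe-3-1-/- replicate C reached the range of the tRNA-Phe-1-1-/- livers. The call was lost without WT replicate B or C or tRNA-Phe-1-1-/- replicate A (adjusted p from 0.0622 to 0.0802). C3, the central component, had 233933, 333876 and 320848 in WT and 202949, 180642 and 196610 in tRNA-Phe-2-1-/- livers. Of the 40 genes it lay farthest below WT in that line, at -0.60 ± 0.24 on the log2 scale, and its adjusted p was 0.284. In tRNA-Phe-1-1-/- livers C3 ranged from 195774 to 364619 (log2 fold change -0.16, adjusted p = 0.704), with replicate B highest as for fibrinogen.

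For the rest of this arm group means are given in the order WT, tRNA-Phe-1-1-/-, then tRNA-Phe-2-1-/-, then tRNA-Phe-3-1-/-. C2, the protease subunit of the classical convertase, averaged 4830 ± 289.2, 5544 ± 454.9, 4046 ± 181.9 and 4725 ± 792.7, and the difference of tRNA-Phe-1-1-/- livers from tRNA-Phe-2-1-/- livers was 0.45 ± 0.12 on the log2 scale (adjusted p = 0.0223), a call lost without tRNA-Phe-2-1-/- replicate B or C. C4b averaged 67999 ± 9645, 79014 ± 7881, 61505 ± 1799 and 61585 ± 8437. The lectin Mbl2 averaged 8441 ± 1882, 7801 ± 1212, 6836 ± 874.2 and 9303 ± 1748, with overlapping values in WT and each knockout. C4b has a near-identical neighbour, C4a, and Cfb lies 87 bases from C2 on chromosome 17, so the division of reads between these genes is uncertain.

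In the clotting chain 2 of the 8 coagulation factors, F10 and F13b, were lower in tRNA-Phe-1-1-/- livers. F10, the protease that turns prothrombin into thrombin, had 13762, 14838 and 15116 normalised counts in WT and 10814, 10697 and 11787 in tRNA-Phe-1-1-/- livers, with 12342, 12984 and 12555 in tRNA-Phe-2-1-/- and 14175, 12574 and 14388 in tRNA-Phe-3-1-/- livers. It fell by 0.39 ± 0.08 on the log2 scale (adjusted p = 0.00618), and the call held when any one library was left out (adjusted p up to 0.0328). The 3 tRNA-Phe-2-1-/- values were also below WT (log2 fold change -0.21 ± 0.08, adjusted p = 0.269), and the difference of tRNA-Phe-1-1-/- livers from tRNA-Phe-2-1-/- livers was -0.19 ± 0.08 (adjusted p = 0.131). F13b, the carrier subunit of factor XIII, had 6604, 6084 and 6127 in WT and 4635, 3082 and 5378 in tRNA-Phe-1-1-/- livers, with 7070, 6931 and 6979 in tRNA-Phe-2-1-/- and 6346, 7436 and 8797 in tRNA-Phe-3-1-/- livers. It fell by 0.56 ± 0.17 against WT (adjusted p = 0.0456), and lay lower still against tRNA-Phe-2-1-/- (-0.72 ± 0.17, adjusted p = 0.0173) and tRNA-Phe-3-1-/- livers (-0.81 ± 0.17, adjusted p = 0.0101). The call against tRNA-Phe-2-1-/- livers was lost without tRNA-Phe-2-1-/- replicate B or C. That against tRNA-Phe-3-1-/- livers was lost in a fit of those 2 groups alone. The log2 fold change against WT was -0.33 without tRNA-Phe-1-1-/- replicate B (adjusted p = 0.0974). With edgeR, without the filter on low values, without the variance trend and in a fit of the 2 groups alone the call against WT was lost. It was also lost in 9 of the 12 fits that left out a library (adjusted p up to 0.109). It was kept without tRNA-Phe-1-1-/- replicate C and without tRNA-Phe-3-1-/- replicate A or C.

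The contact system starts clotting on negatively charged surfaces through plasma prekallikrein (Klkb1) and the kininogens (Kng1, Kng2). Klkb1 had 14896, 15838 and 15124 normalised counts in WT and 11841, 8449 and 13753 in tRNA-Phe-1-1-/- livers, with 15950, 16359 and 17041 in tRNA-Phe-2-1-/- and 18349, 16927 and 19605 in tRNA-Phe-3-1-/- livers. The tRNA-Phe-1-1-/- values were below all others and the other knockouts lay above WT without overlap. Klkb1 fell by 0.46 ± 0.14 against WT (adjusted p = 0.0469), by 0.56 ± 0.14 against tRNA-Phe-2-1-/- (adjusted p = 0.0215) and by 0.72 ± 0.14 against tRNA-Phe-3-1-/- livers (adjusted p = 0.00715). As for F13b, the call against tRNA-Phe-2-1-/- livers was lost without tRNA-Phe-2-1-/- replicate B or C. That against tRNA-Phe-3-1-/- livers was lost in a fit of those 2 groups alone. The call against WT was the least stable, kept in 1 of 12 fits that left out a library (without tRNA-Phe-1-1-/- replicate C), with a log2 fold change of -0.26 without replicate B (adjusted p = 0.0835). It was also lost with edgeR, with quantile normalisation, without the filter on low values, without the variance trend and in a fit of the 2 groups alone. Within tRNA-Phe-1-1-/- livers Klkb1 and F13b had the reverse library order of fibrinogen, lowest in B, then A, then C. Kng2 averaged 7780 ± 817.8 in WT, 8816 ± 840.7 in tRNA-Phe-1-1-/-, 6740 ± 507.0 in tRNA-Phe-2-1-/- and 8315 ± 945.7 in tRNA-Phe-3-1-/- livers, and tRNA-Phe-1-1-/- livers exceeded tRNA-Phe-2-1-/- livers (0.39 ± 0.11, adjusted p = 0.0383), a call lost without tRNA-Phe-2-1-/- replicate B or C. Kng1 and Kng2 are close paralogs, and reads could be divided between them.

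Of 5 inhibitors, antithrombin (Serpinc1), which blocks thrombin and factor X, was lower in tRNA-Phe-1-1-/- livers. It had 70655, 73807 and 74101 normalised counts in WT and 53485, 58288 and 61266 in tRNA-Phe-1-1-/- livers, with 58766, 66090 and 63978 in tRNA-Phe-2-1-/- and 71121, 67893 and 68507 in tRNA-Phe-3-1-/- livers. The fall was 0.34 ± 0.09 on the log2 scale, with an adjusted p of 0.0282, and the tRNA-Phe-2-1-/- values also lay below WT (-0.21 ± 0.09, adjusted p = 0.320). The differences of tRNA-Phe-1-1-/- livers from the other knockouts did not pass (adjusted p = 0.387 and 0.0751). The call was lost without WT replicate B or C or tRNA-Phe-1-1-/- replicate A (adjusted p from 0.0849 to 0.110) and with quantile normalisation (adjusted p = 0.114). It was also lost without the filter on low values (adjusted p = 0.0771), with a replicate block (0.0512) and in a fit of the 2 groups alone (0.106). Protein C (Proc), the vitamin K dependent inhibitor of the cofactors, averaged 15278 ± 531.9 in WT and 12648 ± 1684 in tRNA-Phe-1-1-/- livers (adjusted p = 0.0621), and passed against tRNA-Phe-2-1-/- (15709 ± 177.6, log2 difference -0.32, adjusted p = 0.0397, a call lost without tRNA-Phe-2-1-/- replicate B or C) and tRNA-Phe-3-1-/- livers (15937 ± 891.1, -0.34, adjusted p = 0.0312, a call lost in a fit of those 2 groups alone). Its cofactor Pros1 averaged 2334 ± 211.9, 3129 ± 628.9, 2350 ± 109.9 and 2917 ± 499.7 in that same order of genotypes, WT first.

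In fibrinolysis 0 of 5 genes passed in any knockout against WT. Hrg, a histidine-rich plasma protein that binds plasminogen, averaged 10463 ± 686.4, 9753 ± 1439, 8174 ± 252.4 and 8858 ± 793.8, with log2 fold changes of -0.35 ± 0.11 in tRNA-Phe-2-1-/- (unadjusted p = 0.00751, adjusted p = 0.19) and -0.24 ± 0.11 in tRNA-Phe-3-1-/- livers (adjusted p = 0.307). The remaining 19 genes (F2, F5, F7, F9, F11, F12, Kng1, Serpind1, Serping1, Plg, Serpinf2, Cpb2, Vtn, Masp1, Masp2, Mbl1, Cfb, Cfi and C8a) had log2 fold changes between -0.26 and 0.28 in tRNA-Phe-1-1-/-, between -0.26 and 0.33 in tRNA-Phe-2-1-/- and between -0.18 and 0.24 in tRNA-Phe-3-1-/- livers.

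**Figure D4:**
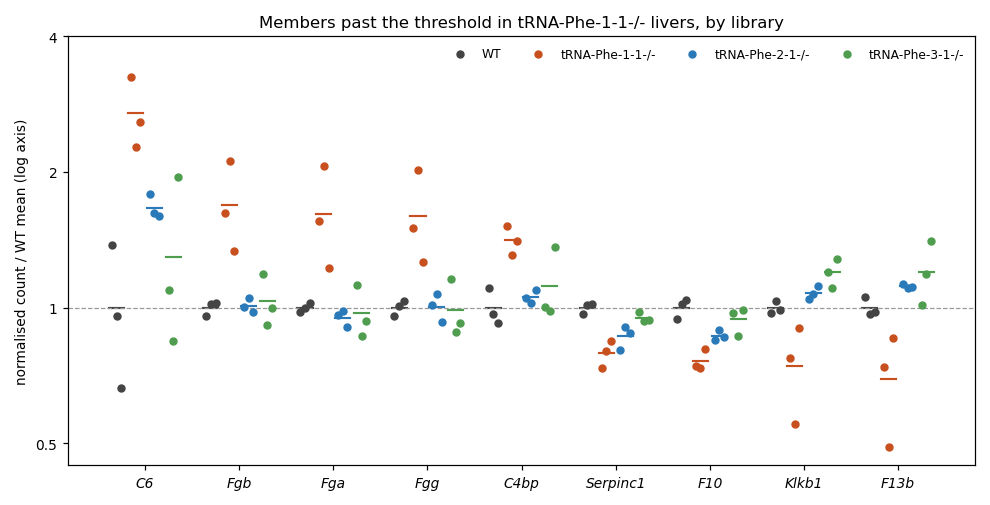
Normalised count of each of the 9 called genes divided by the mean of the WT livers (y axis, log scale) for the 12 liver libraries; points are libraries, A to C from left to right within a genotype, short lines are means of 3, and the dashed line is the WT mean. C6 is highest in tRNA-Phe-1-1-/- livers (2.79-fold by the log2 fold change, which is not drawn). The fibrinogen chains move together with replicate B on top, and Klkb1 and F13b are lowest in that same replicate.

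Direct comparison of the knockouts called 9 of the 40 genes when tRNA-Phe-1-1-/- livers were set against tRNA-Phe-2-1-/- livers (15.9% of all genes) and 8 when they were set against tRNA-Phe-3-1-/- livers (16.1%). Among the 2016 genes of like abundance these shares were 29.7% and 30.1%, so neither count is a result about the 40 genes as a set. Of the 9 genes that differed from WT, 6 also differed from tRNA-Phe-2-1-/- livers and 7 from tRNA-Phe-3-1-/- livers, and 5 (F13b, Fga, Fgb, Fgg and Klkb1) differed from both. Without tRNA-Phe-2-1-/- replicate B or C, 0 of the 40 genes passed against tRNA-Phe-2-1-/- livers, and 3 passed without its replicate A or in a fit of the 2 groups alone, and 4 without tRNA-Phe-1-1-/- replicate A. Against tRNA-Phe-3-1-/- livers, 2 passed without tRNA-Phe-1-1-/- replicate A, 4 without tRNA-Phe-1-1-/- replicate B or tRNA-Phe-3-1-/- replicate B, and 0 in a fit of the 2 groups alone. The added genes were Kng2, Proc and C2 against tRNA-Phe-2-1-/- and Proc against tRNA-Phe-3-1-/- livers. All of these comparisons share the tRNA-Phe-1-1-/- libraries. Of tRNA-Phe-2-1-/- livers against tRNA-Phe-3-1-/- livers, 0 of the 40 genes (limma, edgeR and DESeq2) and 0% of all genes (limma) passed, with Kng1, Kng2 and Mbl2, 3 genes, at an unadjusted p under 0.05 and 1059 genes in all.

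A further 58 genes of complement and coagulation, among them those made mainly by endothelial cells or macrophages, were examined as a list, of which 52 were tested. In tRNA-Phe-1-1-/- livers 9 were higher and 2 lower (median over the list 0.15 on the log2 scale, against -0.01 for all genes, of which 17.3% were called), and 0 passed in the other knockouts. Serpina10, the protein Z dependent inhibitor of factor X, rose by 1.09 ± 0.09 (adjusted p = 5.9e-05), from 5977 ± 156.8 to 12791 ± 1150 normalised counts. Tfpi2, a Kunitz protease inhibitor, fell by 0.93 ± 0.09 (adjusted p = 0.000123). Mcfd2, which with Lman1 carries factors V and VIII out of the endoplasmic reticulum, rose by 0.41 ± 0.11 (adjusted p = 0.0226), and Cpn2, a subunit of carboxypeptidase N, rose by 0.34 ± 0.09 (adjusted p = 0.0226). F8, made by the liver endothelium, was 1901 ± 196.9 in WT and 1879 ± 215.0 in tRNA-Phe-1-1-/- livers, with log2 fold changes of 0.47 in tRNA-Phe-2-1-/- livers and 0.40 in tRNA-Phe-3-1-/- livers (adjusted p = 0.111 and 0.112). Tfpi and the integrin Itgam passed the F-test (adjusted p = 0.0176 and 0.0229) and no comparison with WT.

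Markers of liver cell types were read in the same libraries, since a bulk sample cannot tell fewer cells of a type from less RNA per cell. Of 17 hepatocyte markers 0 passed in tRNA-Phe-1-1-/- livers. Their summed level was 3639082 to 4025206 normalised counts there and 4246585 to 4898868 in WT. It was 3852793 to 4163256 in tRNA-Phe-2-1-/- livers, also below WT, and 4516919 to 5036183 in tRNA-Phe-3-1-/- livers. Albumin, the largest of the markers, averaged a log2 fold change of -0.48 in tRNA-Phe-1-1-/- livers (adjusted p = 0.267). Of 12 neutrophil markers 4 were tested, and the rest lay under the low-value filter. Of the 4, 3 (S100a8, S100a9 and Csf3r) were higher. The summed level of the list was low, at 223.1 to 525.5 against 60.58 to 116.6 in WT. S100a8 had 1.954 to 9.883 normalised counts in WT and 14.33 to 71.42 in tRNA-Phe-1-1-/- livers. It reached a mean of 10 only through the tRNA-Phe-1-1-/- livers, so its call is no support for a difference. Lyve1 rose and Kdr fell among 12 sinusoidal endothelial markers, of which 2 were higher and 1 lower (summed level 18576 to 22784 against 18494 to 22578). For Kupffer cells 0 of 12, for stellate cells and fibroblasts 1 of 12 (Dcn, higher), for cholangiocytes 0 of 7 and for platelets 0 of 4 tested markers passed. The summed Kupffer level was 11274 to 16311 against 11515 to 12798, and the summed platelet level 416.9 to 840.2 against 372.3 to 388.4. Of 6 tested neuron and glia markers 1, Syt1, was lower, with a summed level of 173.7 to 479.9 against 566.7 to 882.1. In these lists 0 markers were at 0 in all libraries. In tRNA-Phe-2-1-/- livers 0 markers of these lists passed, and in tRNA-Phe-3-1-/- livers the hepatocyte marker Tdo2 did (log2 fold change 0.53, adjusted p = 0.0392). The part of these cell types in the values of the 40 genes was not tested.

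The brain libraries served to look for carried-over liver RNA. Albumin ranged from 3.23 to 877.2 normalised counts, at most 0.0468% of its liver mean, and the 3 fibrinogen chains summed to 0 to 438.8. Of the 40 genes, 22 had a median under 10 normalised counts over the 12 brain libraries, and 5 had a median of at least 100. These were Vtn (1764 to 2321), C4b (383.6 to 947.8), Pros1 (418.5 to 609.0), Masp1 (160.0 to 270.9) and Serping1 (72.92 to 187.0), which kept these ranges in brain libraries with almost no albumin. Where albumin was high, as in tRNA-Phe-1-1-/- replicate A (851.3), 4 of the 40 genes lay at or under 3 reads, against 24 in tRNA-Phe-3-1-/- replicate A (3.23). A count of 0 allows up to 3 reads, 2.22 to 3.44 normalised counts depending on the library, and covers counting error only.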

How the data were processed

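RNA sequencing was performed by the authors on total liver and brain RNA with 4 genotypes and 3 replicates per genotype and tissue, with groups read from the titles. Reads had been trimmed by the authors (Trim Galore, cutadapt), who aligned them with STAR to GRCm38.p6 and quantified transcripts with Salmon, strand-aware and with sequence and GC bias correction, before tximport and DESeq2. The deposited tables hold a signal, the normalised count, that is the rounded estimated read count divided by one size factor per library. Salmon divides reads between near-identical genes, and one size factor per library does not correct for a shift shared by most genes. The authors' comparison tables (fold changes and s-values) were not used.

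Within a column 100% of the values were whole multiples of one step (tolerance 0.01 reads). Whole reads were recovered from it, which gave the depth and served the count tests. Log2(normalised count + 1) was tested with limma 3.58.1 in R 4.3.3 (variance trend, 12 liver libraries in one fit, genes with a mean of at least 10), with Benjamini-Hochberg adjustment over 15856 genes and a threshold of 0.05. P-values are two-sided. Fold changes are on this scale, and errors after ± are the SE for log2 fold changes and the SD (n = 3) for means. The low-value filter used all 12 libraries. The procedure was tested on simulated counts.

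Alternatives were pseudocounts of 0.1 and 5, dropping the filter, raising it to 50, quantile normalisation, trimmed means (30%), no variance trend, a replicate block, the compared groups alone, edgeR 4.0.16, DESeq2 1.42.0 and leaving out each library. The members and lists were chosen with earlier results of these data known. Values in every library are given for genes past the threshold, means for the 12 others with the largest fold changes, and ranges for the rest; of the other lists, up to 8 or 4 genes by lowest F-test p. Symbols and transcript lengths came from GENCODE vM39 through Ensembl identifiers (93.2% matched, and 17 of 18 hepatocyte markers), positions and promoters from RefSeq on GRCm38.p6. Phenylalanine was counted as codons of vM39 coding sequences, since no protein table was used. No 2 replicates agreed within sampling noise. Some genes of the lists are not reported here by name.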

Additional observations from a re-analysis of the deposited data

How the results depend on the processing

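The counts of called genes in tRNA-Phe-2-1-/- livers and in tRNA-Phe-3-1-/- livers against WT, and between these 2 lines, were 0 under each alternative. For tRNA-Phe-1-1-/- against WT the 9 calls became 5 without a filter on low values, where more genes share the adjustment. They became 4 with only the 2 groups fitted, where fewer libraries estimate the spread. Leaving out one library gave 3 to 12. The share of all genes called in these fits was 8.3%, 11.4% and 9.28% to 18.1%, against 17.3% in the main fit. Such shares are not given here for the F-test or the comparisons between knockouts under the alternatives. Against tRNA-Phe-2-1-/- livers the 9 calls became 5 without a filter, 3 with the 2 groups alone and 0 to 10 without one library, and against tRNA-Phe-3-1-/- livers the 8 calls became 0 with the 2 groups alone and 2 to 8 without one library. The F-test called 7 genes, 13 with DESeq2 (the cause was not tested) and 0 to 8 without one library. Same-letter correlations of deviations from the group means ran from -0.29 to 0.24. Libraries of different letters were not correlated for comparison, so whether a letter marks a shared litter or batch was not tested. With the letter as a replicate block the F-test called 4 genes and the comparison of tRNA-Phe-1-1-/- with WT called 8. Without the 10 most abundant genes in the denominator, the share of counts held by the 40 genes was 5.30% in WT, 6.35% in tRNA-Phe-1-1-/-, 4.77% in tRNA-Phe-2-1-/- and 5.07% in tRNA-Phe-3-1-/- livers. Leaving out one library of the genotype, an alternative chosen after seeing the data, gave 3.69% to 3.86%, 4.15% to 4.92%, 3.36% to 3.44% and 3.34% to 3.73%. No log2 fold change of the 9 genes changed sign. The shallowest liver library held 32276896 reads, and the lowest of the 40 genes had a mean of 2472 normalised counts, so counting error is small beside the within-genotype SD (median 0.15 on the log2 scale).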

Other observations

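Neighbouring genes of the 40 did not always move together. There were 9 pairs of neighbours less than 200 kb apart (RefSeq, GRCm38.p6). On chromosome 3 Fgg, Fga and Fgb lay 11.1 and 8.6 kb from each other and had log2 fold changes of 0.65, 0.66 and 0.73 in tRNA-Phe-1-1-/- livers. On chromosome 8 F7 and F10 were 1.5 kb apart with log2 fold changes of -0.13 and -0.39, and F11 and Klkb1 were 4.6 kb apart with 0.15 and -0.46. The Klkb1 to F11 ratio per kb was 3.32 to 4.32 in WT and 1.9 to 2.85 in tRNA-Phe-1-1-/- livers. It was 3.54 to 3.90 in tRNA-Phe-2-1-/- and 2.76 to 4.92 in tRNA-Phe-3-1-/- livers, of which replicate C (2.76) reached the tRNA-Phe-1-1-/- range.

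Phenylalanine codons made up 1.87% (Fgb) to 6.93% (C8g) of the coding sequences of the 40 genes, with a median of 4.03%, against 3.60% over 13067 protein-coding genes tested. The median was 3.55% for the 5 genes that were higher in tRNA-Phe-1-1-/- livers, 4.48% for the 4 that were lower and 4.03% for the 31 others. These are descriptions of few genes with overlapping ranges (1.87% to 4.74% and 2.99% to 5.38%).

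The traces of fibrinogen and albumin in the brain libraries were set beside their amounts in the liver. The ratio of summed fibrinogen to albumin normalised counts was 0.199 to 0.250 in WT livers, 0.383 to 0.568 in tRNA-Phe-1-1-/-, 0.267 to 0.328 in tRNA-Phe-2-1-/- and 0.206 to 0.225 in tRNA-Phe-3-1-/- livers. In brain it was 0.258 to 0.330 in the 3 WT libraries (32 to 229 fibrinogen reads), 0.515 and 0.750 in tRNA-Phe-1-1-/- replicates A and C (383 and 27 reads) and 0.253 to 0.288 in the 3 tRNA-Phe-2-1-/- libraries (87 to 338 reads). The other 4 brain libraries held 0 to 6 fibrinogen reads.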
